A study of Mus musculus with 6 samples.

Results

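Kit encodes the receptor tyrosine kinase for stem cell factor, Kitl encodes stem cell factor itself, and Cpa3, Cma1, Mcpt4, Tpsb2, Ms4a2 and Hdc are genes by which mast cells are recognised. These 8 genes, of the 54532 in the deposited table of FPKM (fragments per kilobase of gene length, scaled by a factor for each library), were described in hearts of Mc4r KO and WT mice. Kit was picked by its own values, because it was lower in the Mc4r KO mice, so its contrast is given here as a description with no test. Kitl and the mast cell genes were chosen by what they encode, with earlier results of these data known. They were tested in a fit over the whole table.

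The study compared 3 male Mc4r KO mice with 3 male WT mice at 12 weeks, with 1 library per mouse. All mice were littermates from crosses of heterozygous parents on the C57B/6/N background, and the Mc4r KO mice were homozygous for a deletion present in every cell of the body and not only in the heart. Polyadenylated RNA was sequenced from the heart. The tissue is given as left ventricle in the study's text, whereas the labels give heart as the tissue and Muscle in the sample titles. Values of a group are given in the order of its replicates 1, 2 and 3.

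Binding of stem cell factor pairs 2 Kit molecules, which then phosphorylate each other and recruit kinases, adaptors and phosphatases. Kit is carried by blood progenitors, mast cells, melanocytes, germ cells and pacemaker cells of the gut, and has been described on endothelial cells and on rare interstitial cells of the heart. Its ligand is made by endothelial cells, fibroblasts and other stromal cells, first as a membrane protein from which proteases can release a soluble form. Mast cells of connective tissue, the heart included, depend on Kit throughout their life and store chymases, tryptases, carboxypeptidase A3 and histamine in their granules.

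The sequences just upstream of Kit, Cpa3 and Mcpt4 are shown because the levels of these genes are set against each other in what follows. They are the 250 bases before the transcription start in RefSeq (GRCm38.p6), written 5′ to 3′ on the strand of the gene, and capitals mark a GATA motif, a binding word of GATA factors such as Gata1 and Gata2. Kit is at chr5:75574737-75574986 on the plus strand, Cpa3 at chr3:20242182-20242431 on the minus strand and Mcpt4 at chr14:56062311-56062560 on the minus strand.
Kit: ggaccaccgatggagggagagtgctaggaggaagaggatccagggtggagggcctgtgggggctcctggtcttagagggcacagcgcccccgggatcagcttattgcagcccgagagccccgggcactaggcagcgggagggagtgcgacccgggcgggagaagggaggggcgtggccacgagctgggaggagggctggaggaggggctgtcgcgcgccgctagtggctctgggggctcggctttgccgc
Cpa3: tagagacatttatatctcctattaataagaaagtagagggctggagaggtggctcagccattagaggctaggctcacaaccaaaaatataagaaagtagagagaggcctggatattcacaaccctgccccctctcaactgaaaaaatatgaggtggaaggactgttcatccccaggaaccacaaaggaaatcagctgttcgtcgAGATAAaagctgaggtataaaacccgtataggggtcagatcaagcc
Mcpt4: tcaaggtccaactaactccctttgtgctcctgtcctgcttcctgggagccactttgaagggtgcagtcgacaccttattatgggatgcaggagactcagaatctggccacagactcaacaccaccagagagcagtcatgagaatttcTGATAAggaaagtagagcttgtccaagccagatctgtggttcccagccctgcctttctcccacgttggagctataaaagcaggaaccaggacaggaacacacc
The words searched on both strands were AGATAA and AGATAG as well as TGATAA and TGATAG, in windows that also held the first 50 bases after the start. Cpa3 held 1 match, starting 46 bases before the start, and Mcpt4 held 1, starting 103 bases before it. Cma1 and Hdc held 1 match each and Ms4a2 held 3, while Kit and Kitl held 0. Of 32851 mouse windows of this length 29.8% held at least 1 match. The Kit window had 20 CpG dinucleotides and that of Kitl had 28, against 2 or 3 in each of the 5 mast cell genes and a median of 7 over all windows. RefSeq windows were matched for 7 of the 8 genes, Tpsb2 being the gene without a match. The matches describe letters in the windows and say nothing of factors bound there.

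Between 14691076 and 16047003 reads were counted on genes per library, and 3 reads on a gene of 1 kb, taken as the floor of detection, correspond to an FPKM between 0.176 and 0.213. This floor covers counting error only. Mc4r, the deleted gene, was read 0, 0 and 2 times in WT and 0 times in every Mc4r KO library, so the genotype could not be checked from the heart RNA. Genes encoded by the mitochondrial genome took 47.1% to 59.3% of the summed FPKM in WT and 43.0% to 46.6% in Mc4r KO. WT replicate 3 stood apart by atrial transcripts: the summed FPKM of Nppa, Myl7, Sln and Myl4 was 747.1 there, against 28.6 and 95.2 in the other WT libraries and 136.3, 6.29 and 43.7 in Mc4r KO. Of these 4 genes limma and limma voom called 0, and 0 had an unadjusted p under 0.05. Cardiomyocyte genes were abundant in every library.

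Kit was lower in every Mc4r KO mouse than in any WT mouse. Its FPKM was 1.91, 1.69 and 0.936 in the WT mice, against 0.441, 0.421 and 0.231 in the Mc4r KO mice. WT replicate 3 was the lowest WT library, and still lay above the highest Mc4r KO library. The mean was 1.51 ± 0.511 in WT and 0.364 ± 0.116 in Mc4r KO (SD, n = 3 each), a ratio of means of 4.15 and a difference of -1.77 on the log2(FPKM + 0.1) scale. This pseudocount of 0.1 understates changes of low genes.

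Kit (ENSMUSG00000005672) spans chr5:75574916-75656722 of mm10 on the plus strand and has 8911 bases of exon. The reads behind the FPKM were 240, 216 and 142 in WT and 61, 57 and 33 in Mc4r KO, 598 against 151 in all. No exon of another gene overlapped those of Kit in the GENCODE M21 annotation on either strand, and Kit shared no run of 50 bases with the transcripts of other genes. Over 6 fits that each left out 1 library, the difference lay between -2.06 and -1.54 on the log2(FPKM + 0.1) scale, with the value of -2.06 found without WT replicate 3. In tissue RNA, fewer cells of a type and less RNA per cell cannot be told apart.

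**Figure D1:**
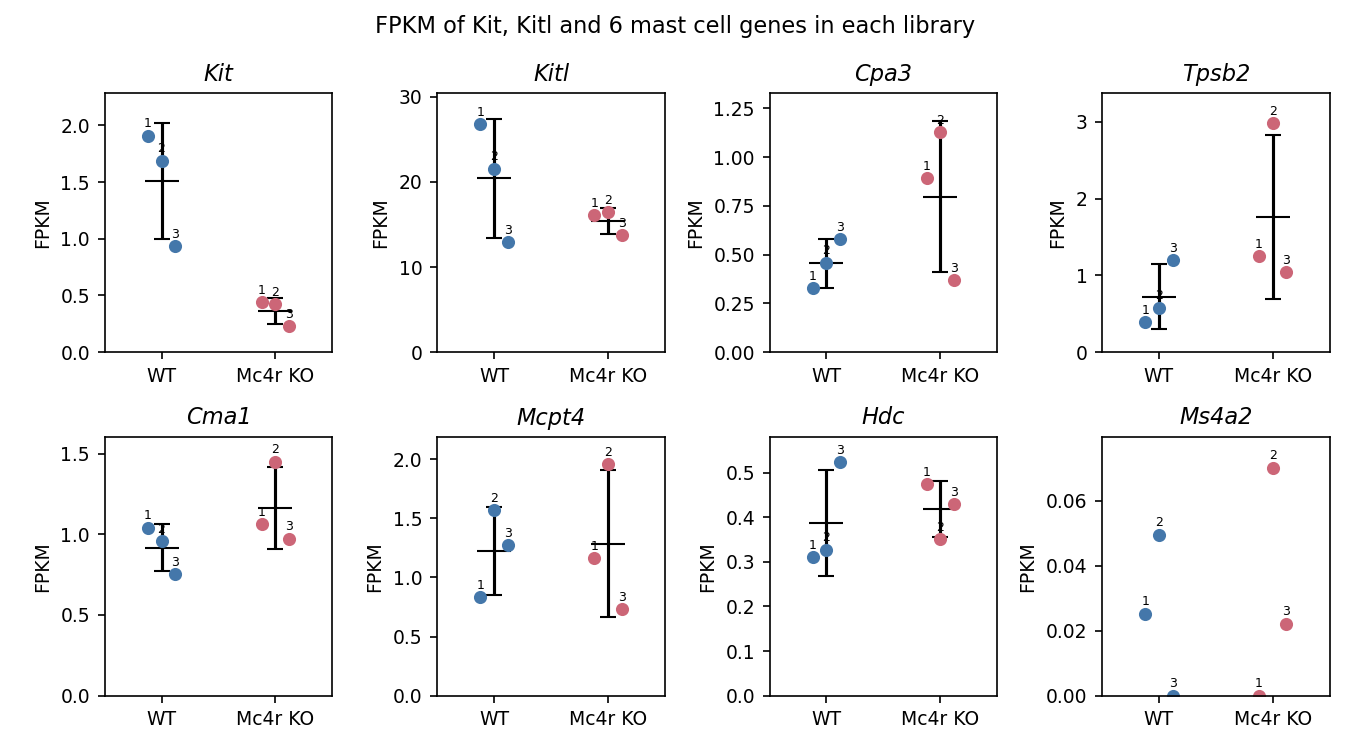
FPKM of the 8 genes in each library, with WT mice in blue and Mc4r KO mice in red, the number beside a point giving the replicate. Each panel starts at 0 on its own axis; the horizontal mark is the mean and the bar 1 SD (n = 3), left out for Ms4a2, which had at most 3 reads. Kit has no overlap between groups, with 0.936 as the lowest WT value and 0.441 as the highest Mc4r KO value.

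Kitl, the ligand, was present at a far higher level than its receptor, and its difference between groups did not pass the test. Kitl FPKM was 26.8, 21.6 and 12.9 in the WT mice, against 16.1, 16.5 and 13.7 in the Mc4r KO mice. WT replicate 3 lay below all 3 Mc4r KO libraries, so the groups overlapped. The mean was 20.4 ± 6.997 in WT and 15.4 ± 1.49 in Mc4r KO (SD, n = 3 each), a log2 difference of -0.35 with a 95% interval from -0.93 to 0.24 (adjusted p = 0.479, limma). Without WT replicate 3 the log2 difference was -0.64 with an adjusted p of 0.0345 from limma, which is still short of a call. A call needs an adjusted p under 0.05 (Benjamini-Hochberg, all tested genes) and an absolute log2 difference above 0.75.

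The ratio of ligand to receptor separated the groups. Kitl FPKM per Kit FPKM was 14.0, 12.8 and 13.8 in WT, against 36.4, 39.1 and 59.4 in Mc4r KO. Its mean was 13.5 ± 0.669 in WT and 45.0 ± 12.6 in Mc4r KO (SD, n = 3 each). In WT the pair kept nearly the same proportion, with both genes lowest in replicate 3. The ratio contains Kit and is a description. Kitl (ENSMUSG00000019966, chr10:100015630-100100416, plus strand, 5911 exonic bases) rested on 1301 to 2232 reads per WT library and 1300 to 1479 per Mc4r KO library.

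None of the 7 genes other than Kit was called. Of these 7, 6 had the mean FPKM of 0.1 needed for the test, limma called 0, limma voom on recovered read counts called 0, and 1 (Tpsb2) had an unadjusted p under 0.05. Among all tested genes, 0.46% of 18035 were called, 57 higher and 26 lower in Mc4r KO. None of the 6 separated the groups without overlap, while 14.1% of tested genes did so with Mc4r KO higher and 12.4% with Mc4r KO lower. Of the 6 genes 5 had a positive and 1 (Kitl) a negative log2 difference, with a median of 0.20 against -0.01 over all tested genes. The count of calls was 0 under each of the 16 alternative settings, the fit without WT replicate 3 among them.

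Tpsb2, a tryptase of mast cell granules, had the largest difference among the mast cell genes, in the direction opposite to Kit. Its FPKM was 0.394, 0.580 and 1.19 in the WT mice, against 1.25, 2.98 and 1.04 in the Mc4r KO mice. WT replicate 3 overlapped the Mc4r KO libraries, and Mc4r KO replicate 2 was far above all others. The mean was 0.723 ± 0.419 in WT and 1.76 ± 1.07 in Mc4r KO (SD, n = 3 each), a log2 difference of 1.15 with a 95% interval from 0.04 to 2.26 (adjusted p = 0.228, limma). The log2 difference was 0.71 without Mc4r KO replicate 2 (adjusted p = 0.487, limma) and 1.53 without WT replicate 3 (adjusted p = 0.0854, limma). Tpsb2 (ENSMUSG00000033825) lies at chr17:25366550-25368094 on the plus strand in the deposited table, a span that differs from GENCODE M21, and its values rest on 6, 9 and 22 reads in WT and 21, 49 and 18 in Mc4r KO.

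Cpa3, carboxypeptidase A3, is among the genes most restricted to mast cells. Its FPKM was 0.327, 0.459 and 0.581 in WT and 0.892, 1.13 and 0.370 in Mc4r KO. Mc4r KO replicate 3 fell among the WT libraries. The mean was 0.456 ± 0.127 in WT and 0.797 ± 0.388 in Mc4r KO (SD, n = 3 each), a log2 difference of 0.60 with a 95% interval from -0.31 to 1.52 (adjusted p = 0.424, limma). Leaving out 1 library moved it between 0.32, without Mc4r KO replicate 2, and 1.02, without Mc4r KO replicate 3. Cpa3 (ENSMUSG00000001865, chr3:20215620-20242181, minus strand) had 32 reads over the WT libraries and 56 over the Mc4r KO libraries.

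The chymases Cma1 and Mcpt4, serine proteases of connective tissue mast cells, did not pass the test. Both lie on the minus strand of chromosome 14, Cma1 (ENSMUSG00000022225) at chr14:55941451-55944675 and Mcpt4 (ENSMUSG00000061068) at chr14:56059629-56062313, with Mcpt1, Mcpt9 and Mcpt2 between them. Cma1 FPKM was 1.04, 0.958 and 0.754 in WT and 1.06, 1.45 and 0.972 in Mc4r KO, with a log2 difference of 0.30 and a 95% interval from -0.19 to 0.79 (adjusted p = 0.456, limma). It was 0.15 without Mc4r KO replicate 2 and 0.18 without WT replicate 3. Mcpt4 FPKM was 0.832, 1.57 and 1.27 in WT and 1.16, 1.96 and 0.731 in Mc4r KO. Its log2 difference was 0.0060 with a 95% interval from -0.85 to 0.86 (adjusted p = 0.995, limma), and its sign changed with the scaling and with the libraries used. Both genes have close copies: 5.38% of the runs of 50 bases of Cma1 were shared with Gm48934, listed at 0 in each library, and 5.48% of those of Mcpt4 with Cma2 and Mcpt9, so a small part of their reads is uncertain.

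Hdc makes histamine from histidine, and Ms4a2 encodes the beta chain of the IgE receptor. Hdc FPKM was 0.311, 0.327 and 0.524 in WT and 0.474, 0.350 and 0.429 in Mc4r KO, a log2 difference of 0.11 with a 95% interval from -0.54 to 0.75 (adjusted p = 0.858, limma). Its groups overlapped fully, and the sign of this small difference turned under scaling outside the mitochondrial genes and without WT replicate 1, and the value was 0.30 without WT replicate 3. Ms4a2 had 1, 2 and 0 reads in WT and 0, 3 and 1 in Mc4r KO, at or under the floor of 3 reads, so no difference was detectable at this depth. It did not reach the mean FPKM for the test. Hdc (ENSMUSG00000027360) is at chr2:126593667-126619299 and Ms4a2 (ENSMUSG00000024680) at chr19:11615523-11623719, both on the minus strand.

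**Figure D2:**
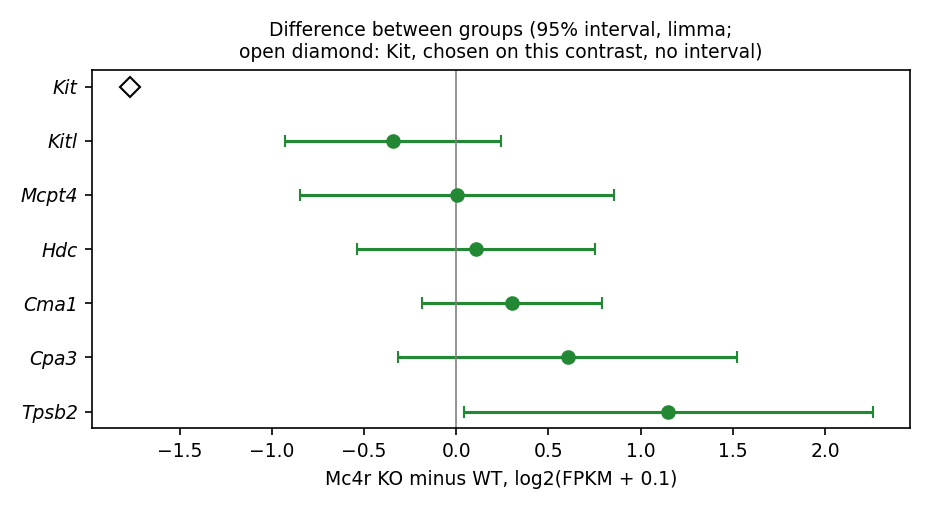
Difference between groups, Mc4r KO minus WT, on the log2(FPKM + 0.1) scale for Kit and the 6 tested genes; bars are 95% intervals from limma over 3 mice per group. Kit, drawn as an open diamond at -1.77 with no interval since it was picked on this contrast, lies to the left of the other points, which run from -0.35 (Kitl) to 1.15 (Tpsb2).

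Ordered by mean FPKM in WT, Kitl (20.4) came first, followed by Kit (1.51), Mcpt4 (1.22), Cma1 (0.918), Tpsb2 (0.723), Cpa3 (0.456), Hdc (0.387) and Ms4a2 under the floor. From Kit to Hdc, neighbours in this order differed by less than the larger SD of the pair. In Mc4r KO the order was Kitl (15.4), Tpsb2 (1.76), Mcpt4 (1.28), Cma1 (1.16), Cpa3 (0.797), Hdc (0.418) and Kit (0.364). There Hdc and Kit did not differ beyond their spread. The place of Kit in both orders rests on the values it was picked by, and in WT replicate 3 Kit lay below Mcpt4 and Tpsb2.

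Most of the mast cell genes were highest in the same Mc4r KO library. The summed FPKM of all 6 was 2.93, 3.94 and 4.33 in the WT mice, against 4.84, 7.94 and 3.56 in the Mc4r KO mice. Mc4r KO replicate 2 was the highest library for Cpa3, Cma1, Mcpt4 and Tpsb2, Hdc was highest in WT replicate 3, and Ms4a2 was too low to rank. The sum had a mean of 3.73 ± 0.721 in WT and 5.45 ± 2.25 in Mc4r KO (SD, n = 3 each), so the groups overlapped through Mc4r KO replicate 3.

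Kit was also set against that sum. Kit FPKM per summed mast cell FPKM was 0.652, 0.428 and 0.216 in WT, against 0.0910, 0.0530 and 0.0648 in Mc4r KO. In Mc4r KO replicate 2, where the summed mast cell FPKM was highest, Kit FPKM was 0.421, close to the 0.441 of replicate 1. That sum rests on few reads, 169 over the 6 genes in this library, and Hdc did not share its rise. These ratios contain Kit and are a description, and the part of mast cells in the difference in Kit was not tested.

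**Figure D3:**
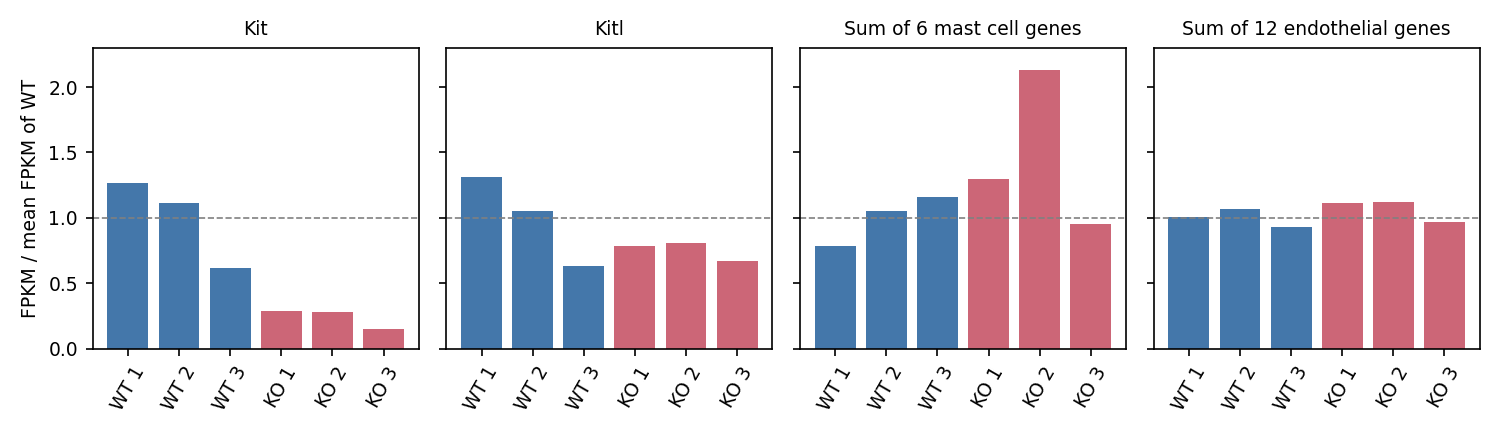
FPKM in each library divided by the mean FPKM of the WT mice for Kit, Kitl, the sum of the 6 mast cell genes and the sum of 12 endothelial genes, WT in blue and Mc4r KO in red, with a dashed line at the WT mean. Kit is below the line in each Mc4r KO library, the mast cell sum is above it in Mc4r KO replicates 1 and 2, and the endothelial sum stays near it throughout.

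Of 22 further mast cell genes, 13 were tested and limma called 0. Limma voom called 0 as well, and 1 (Fcer1g) had an unadjusted p under 0.05. Limma called 0.46% of all tested genes, so a count of 0 in this or another short list says little. Without overlap, 2 (Mitf and Slc18a2) were lower in Mc4r KO and 0 higher, against 12.4% and 14.1% of all tested genes. Both margins were small: the lowest WT and highest Mc4r KO FPKM were 7.828 and 7.827 for Mitf, and 0.504 and 0.492 for Slc18a2. Of the 13 tested genes 9 had a negative and 4 a positive log2 difference, with a median of -0.19. The most abundant were Srgn, the core protein of granule proteoglycans, at 14.8 ± 3.73 in WT and 15.9 ± 2.38 in Mc4r KO, and Fcer1g, the IgE receptor gamma chain also used by macrophages, at 12.4 ± 2.82 and 8.27 ± 1.40 (FPKM, SD, n = 3 each; adjusted p = 0.172 for Fcer1g, limma). Mitf, a transcription factor of mast cells and melanocytes, was at 8.45 ± 0.539 and 7.38 ± 0.440, and Gata2 at 4.39 ± 0.283 and 4.92 ± 0.685. These abundant genes are also expressed outside mast cells.

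Several genes of that list were near or under the floor, while Slc18a2 was better read. Slc18a2 FPKM was 0.504, 0.586 and 0.834 in WT and 0.474, 0.312 and 0.492 in Mc4r KO (adjusted p = 0.353, limma). Fcer1a, the IgE-binding chain, was read 0, 0 and 3 times in WT and 1, 4 and 4 times in Mc4r KO. Tpsab1 was read 0, 0 and 4 times in WT and 1 time in every Mc4r KO library. Mcpt1, Mcpt2, Mcpt9 and Ctsg had 0 reads in all 6 libraries. The basophil genes were also scarce: of 6, only Il4 was tested, with an adjusted p of 0.357 (limma), and their summed FPKM was 0.352 to 0.763 in WT and 0.188 to 0.534 in Mc4r KO.

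Downstream of the receptor, 1 of 24 signalling genes was called, against 0.46% of all 18035 tested genes, and it rose. Ptpn11 encodes the phosphatase SHP2, which is recruited to phosphorylated Kit and is needed for signalling from many growth factor receptors. Its FPKM was 25.2, 28.6 and 27.4 in WT and 50.8, 53.3 and 55.0 in Mc4r KO. The Mc4r KO libraries were tightly grouped and far above the WT libraries, WT replicate 3 included.

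Ptpn11 had a mean of 27.1 ± 1.70 in WT and 53.0 ± 2.14 in Mc4r KO (SD, n = 3 each), a ratio of 1.96 and a log2 difference of 0.97 with a standard error of 0.082 (adjusted p = 0.00975, limma). Its size changed little with the processing, between 0.77 and 1.005 on the log2 scale, but its adjusted p ranged from 0.000987 to 0.0776 over the 16 alternatives and the call was lost in 7 of them. Of these 7, 5 left out 1 library, any other than WT replicate 3, and gave an adjusted p between 0.0516 and 0.0689 from limma. Ptpn11 (ENSMUSG00000043733) is at chr5:121130533-121191397 on the minus strand, the same chromosome as Kit, with 0.0663% of its runs of 50 bases shared with Wdr73 and no overlapping exon.

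Of the other 23 signalling genes, none passed the test. Limma voom called 1 gene of the 24, 6 had an unadjusted p under 0.05, 4 separated the groups without overlap in each direction (over all tested genes 14.1% did so with Mc4r KO higher and 12.4% with it lower), and the median log2 difference was -0.03. Grb2, an adaptor, was at 27.9 ± 2.14 in WT and 26.3 ± 1.34 in Mc4r KO. Pik3r1, the regulatory subunit of phosphoinositide 3-kinase, was at 16.04 ± 1.24 and 22.4 ± 4.25, and Stat5b, a transcription factor activated by Kit, at 14.6 ± 0.363 and 15.5 ± 0.331 (FPKM, SD, n = 3 each). Their adjusted p values were 0.636, 0.137 and 0.579 (limma), and the gene with the lowest log2 difference was the kinase Jak2, at -0.42 (adjusted p = 0.104, limma).

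**Figure D4:**
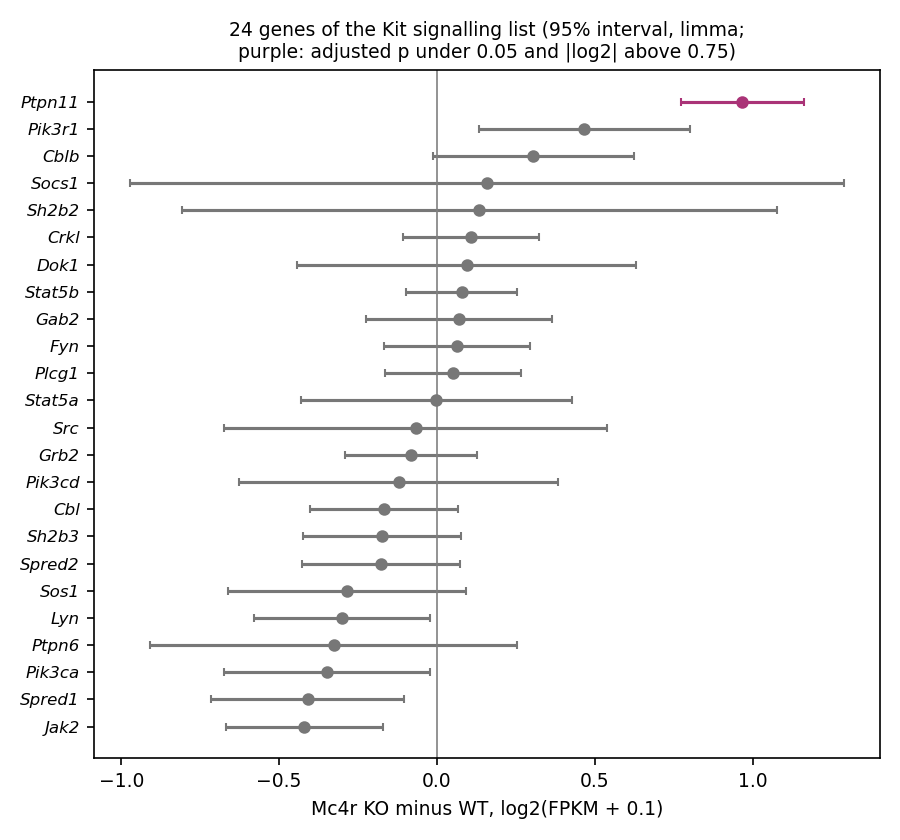
Difference between groups, Mc4r KO minus WT, on the log2(FPKM + 0.1) scale for the 24 signalling genes, ordered by value; bars are 95% intervals from limma over 3 mice per group. Ptpn11, in purple at 0.97, is the called gene and stands clear of the next, Pik3r1 at 0.47; the lowest is Jak2 at -0.42.

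Kit belongs to the class III receptor tyrosine kinases, with the platelet-derived growth factor receptors, Csf1r and Flt3. Of 11 receptors and ligands of this family, 10 were tested and limma called 0, limma voom called 0 and 2 had an unadjusted p under 0.05. Those were Csf1r, the macrophage growth factor receptor, at 13.7 ± 1.76 in WT and 10.6 ± 1.32 in Mc4r KO, and Pdgfra, a receptor of fibroblasts, at 6.47 ± 0.271 and 4.99 ± 0.449 (FPKM, SD, n = 3 each). Both separated the groups with Mc4r KO lower, as did 12.4% of all tested genes. Their log2 differences were -0.37, with adjusted p values of 0.183 and 0.120 (limma). Pdgfrb, a receptor of pericytes, was at 17.6 ± 2.50 and 16.4 ± 1.42, and the median of the list was -0.08.

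Pdgfra and Kdr are also neighbours of Kit on chromosome 5. Of 9 genes around Kit, 6 were tested, 0 were called by limma or limma voom and 2 (Tmem165 and Pdgfra) had an unadjusted p under 0.05. Kdr, the receptor of vascular endothelial growth factor in endothelial cells, was at 26.3 ± 4.70 in WT and 27.2 ± 6.73 in Mc4r KO (FPKM, SD, n = 3 each), a log2 difference of 0.03 (adjusted p = 0.949, limma). The log2 differences of the 6 tested neighbours ran from -0.37 to 0.16, against -1.77 for Kit. Proteases that can release soluble stem cell factor did not pass the test: of Adam9, Adam17, Adam33 and Mmp9, 0 were called by limma or limma voom, 0 had an unadjusted p under 0.05, and Adam9 was at 14.0 ± 0.893 and 13.4 ± 0.376.

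Endothelial cells are a further place where Kit is made, and the sum of their genes overlapped between groups. Of 12 endothelial genes limma called 0 and limma voom 0, and the median log2 difference was 0.06. An unadjusted p under 0.05 was found for 4, Tie1, Esam and Egfl7 with Mc4r KO higher and Erg with it lower. These 4 also separated the groups without overlap, 3 higher and 1 lower in Mc4r KO, against 14.1% and 12.4% of all tested genes. Cdh5, the junction protein of endothelial cells, was at 65.5 ± 9.25 in WT and 62.0 ± 4.30 in Mc4r KO, and Pecam1 at 31.2 ± 2.42 and 35.5 ± 4.67 (FPKM, SD, n = 3 each). The summed FPKM was 235.8 to 271.7 in WT and 247.0 to 284.8 in Mc4r KO. Kit was 0.589% ± 0.179 of this sum in WT and 0.132% ± 0.0339 in Mc4r KO (SD, n = 3 each), a ratio of 4.45.

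Markers of other cells that can carry Kit were measured in the same fit. Of 9 genes of blood stem and progenitor cells 6 were tested and 0 called by limma or limma voom, with 3 (Ly6a, Cd34 and Lmo2) at an unadjusted p under 0.05. Ly6a was higher in Mc4r KO, with a log2 difference of 0.49, while Cd34 (-0.32) and Lmo2 (-0.53) were lower. All 3 separated the groups without overlap, against 14.1% of all tested genes with Mc4r KO higher and 12.4% with it lower. Ly6a and Cd34 are also made by endothelial cells, and Myb and Gfi1b, genes of blood progenitors, were too low to be tested. Of 9 genes of group 2 innate lymphoid cells 5 were tested, 0 were called by limma or limma voom and 0 had an unadjusted p under 0.05.

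Melanocytes, which need Kit to develop and of which a few live in the mouse heart, gave a mixed picture. Of 8 melanocyte genes 6 were tested and limma called 0, while 2 (Ednrb and Dct) had an unadjusted p under 0.05 and limma voom called 1, Dct. Dct makes a pigment precursor and is named here after its values were seen: its FPKM was 0.277, 0.366 and 0.0697 in WT and 0.831, 1.84 and 0.708 in Mc4r KO, a log2 difference of 1.87 (adjusted p = 0.108, limma; 0.0435, limma voom). All WT libraries lay below all Mc4r KO libraries for Dct, opposite to Kit. Mlana ran the other way, with 0, 4 and 59 reads in WT and 3, 0 and 0 in Mc4r KO, nearly all in WT replicate 3, and Tyr and Tyrp1 were too low to be tested.

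Genes of some other cell types separated the groups, in the direction of Kit or against it. Of 6 cardiac mesenchymal genes 3 (Dcn, Lum and Pdgfra) were lower in Mc4r KO without overlap, against 12.4% of all tested genes, while Col1a1, Col1a2 and Tcf21 overlapped, with log2 differences of 0.44, 0.03 and -0.30. The sum of the 6, of which Dcn was the largest part, was 184.8 to 189.1 in WT and 135.8 to 155.4 in Mc4r KO. The 8 T and B cell genes summed to 1.39 to 3.78 in WT and 0.822 to 1.76 in Mc4r KO, and the 9 macrophage genes to 194.1 to 306.0 and 239.3 to 305.3. Of these 9, 3 (Csf1r, Mrc1 and Cd68) were lower in Mc4r KO without overlap, and 0 higher. The 8 cardiomyocyte genes summed to 14250 to 15330 in WT and 17230 to 18820 in Mc4r KO. Of these 8, 3 (Actc1, Myl2 and Ryr2) were higher in Mc4r KO without overlap, against 14.1% of all tested genes, and 0 lower. Actc1, the largest part of that sum, averaged 5178 in WT and 7539 in Mc4r KO. Of 6 smooth muscle genes 1, Des, which cardiomyocytes also express, was higher in Mc4r KO without overlap, and the other 5 overlapped. Limma and limma voom called 0 genes of these 5 lists, with 3, 2, 3, 2 and 2 genes in that order at an unadjusted p under 0.05. Endocardial genes, 5 in number, had 0 calls and 0 such genes, with sums of 21.5 to 48.9 in WT and 14.9 to 39.4 in Mc4r KO. Of 7 adipocyte genes 2 were tested, 0 were called and 1 had such a p. The part of these cells in the difference in Kit was not tested.

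Kit was also set beside 2 features that differed between libraries. WT replicate 3, with the most atrial RNA and the lowest mitochondrial share of the WT libraries, was the WT library with the least Kit. Among the Mc4r KO libraries the atrial sum ranged from 6.29 to 136.3 and Kit from 0.231 to 0.441. The part of atrial tissue in the difference in Kit was not tested. Scaling to the sum outside the mitochondrial genes moved the median of all genes by -0.18 on the log2 scale and gave -1.94 for Kit. The part of the mitochondrial share in the difference was not tested beyond this rescaling.

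**Figure D5:**
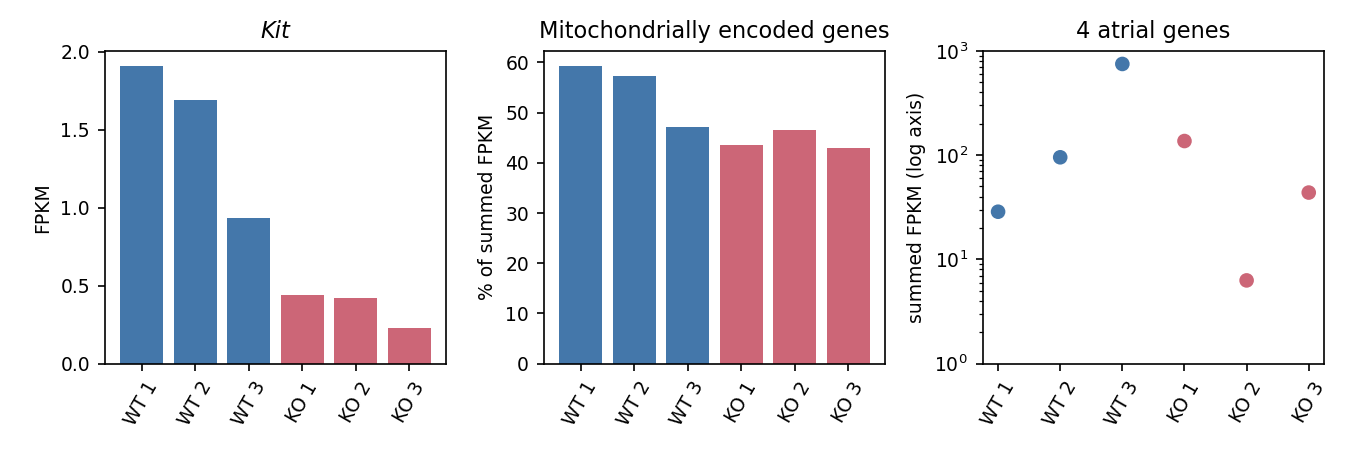
Kit FPKM, the share of summed FPKM from mitochondrially encoded genes in percent, and the summed FPKM of 4 atrial genes on a log axis, for each of 3 WT (blue) and 3 Mc4r KO (red) libraries. WT replicate 3 has the highest atrial sum (747.1) and the lowest Kit level in WT (0.936).

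The genes whose levels followed Kit most closely were Rock1, Fam76a, Oxr1, Akap7 and Aida. They were ranked among 10220 protein-coding genes averaging an FPKM of 1 or more. Likeness was the Pearson correlation of log2 FPKM, with the pseudocount of the main fit, over the 6 libraries, which all genes share. The r of the 5 genes was 0.995, 0.995, 0.994, 0.993 and 0.993, in that order. Rock1, a kinase of the actin cytoskeleton, had an FPKM of 14.5, 13.8 and 12.1 in WT and 9.55, 9.20 and 8.41 in Mc4r KO, so it shared with Kit the order of all 6 libraries. Its ratio of means was 1.49, far under that of Kit. All 5 were lower in Mc4r KO without overlap, which likeness to Kit carries with it, and none of the 5 was called by limma.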

How the data were processed

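Polyadenylated heart RNA of 3 WT and 3 Mc4r KO mice was sequenced in paired ends. The authors aligned reads to mm10 with HISAT2 2.0.5, counted them on genes with featureCounts and deposited FPKM; use of strand is not given in the sources used here. Multiplied by gene length, 100% of the FPKM values in each library were multiples of a common unit (tolerance 0.02), from which reads were recovered. After median-of-ratios scaling (equal in all libraries), limma 3.58.1 (R 4.3.3) with trend was fitted on log2(FPKM + 0.1) for the 18035 genes averaging an FPKM of 0.1 or more, two-sided, with Benjamini-Hochberg adjustment. The p-values measure only the spread between these 3 mice per group. The script was tested on simulated data. The 8 genes and all lists were chosen with earlier results of these data known. Named genes are the 8, list members called or otherwise up to 4 of the highest mean FPKM, the 5 most like Kit, and Mc4r; others, such as those at an unadjusted p under 0.05, were named after their values were seen. Exons and shared 50-base words came from GENCODE M21, where 99.93% of identifiers were found. Alternatives were pseudocounts of 1 and 0.01, no filter, a mean FPKM of at least 1, quantile normalization, scaling outside mitochondrial genes, no trend, a replicate block, voom, protein-coding genes, and leaving out each library.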

Additional observations from a re-analysis of the deposited data

How the results depend on the processing

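Kit was lower in Mc4r KO under each of the 15 alternatives that gave it a value; the log2 difference was -0.86 with a pseudocount of 1, which shrinks low genes by construction, and -2.06 to -1.54 when 1 library was left out. With a mean FPKM of at least 1 required, Kit was not tested. The number of genes called over the table depended strongly on the setting: against 83 (57 higher, 26 lower) it was 44 with a pseudocount of 1, 22 with no filter, 147 with a mean FPKM of at least 1, 49 with quantile normalization, 41 (16 higher, 25 lower) with scaling outside the mitochondrial genes, 21 without trend, 317 with voom, 204 with protein-coding genes only, and 7 to 726 without 1 library, the 726 without WT replicate 3 and 7 without WT replicate 1, 9 without WT replicate 2, and 9, 11 and 14 without Mc4r KO replicates 1, 2 and 3. Ptpn11, the 1 signalling gene called, left 0 calls without trend and 0 to 1 without 1 library. Mcpt4 turned negative with scaling outside the mitochondrial genes (-0.17), with voom (-0.016), without WT replicate 1 (-0.23) and without Mc4r KO replicate 2 (-0.33), ranging from -0.33 to 0.33 without 1 library, and Hdc with that scaling (-0.045) and without WT replicate 1 (-0.0037), ranging from -0.0037 to 0.30 without 1 library. The cause was not tested. Levels near the floor of 3 reads limit Ms4a2, Fcer1a and Tpsab1.

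The labels number the mice 1 to 3 in each group, but nothing ties equal numbers: the deviations of same-numbered libraries correlated at -0.14, 0.0074 and -0.082 over 11297 genes, and not every library correlated best with its own number. With the replicate number as a block 11 genes were called, and 0 of the signalling list, with an adjusted p of 0.0712 for Ptpn11 (limma).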
